A study of Rattus norvegicus with 24 samples.

Results

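Gene expression in the hippocampus of growth hormone (GH)-deficient dwarf rats was compared with that of heterozygous controls after 30 days of saline. The comparison used 8 of the series' 24 arrays, 1 array for each rat, chosen by title: 4 of dw/dw rats given saline and 4 of HZ rats given saline. All animals were of the strain labelled HsdOla:DWARF-dw-4, treatment began on postnatal day 35, and the tissue of these groups was taken at an age of 65 days. Values of the 4 dw/dw rats injected subcutaneously with 300 µg GH over the same 30 days are given for context, and the 7-day groups, aged 42 days, serve as a second age. The controls were heterozygous, so that they also carried 1 dw allele, and no homozygous wild-type rats enter the comparison.

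GH from the pituitary acts on the liver and other tissues through a cytokine-type receptor coupled to JAK2 and STAT5, and raises the output of insulin-like growth factor 1 (IGF-1). IGF-1 acts through a receptor tyrosine kinase that feeds the phosphoinositide 3-kinase and AKT pathway, which promotes protein synthesis and cell growth, and its availability is set by a family of binding proteins. In the hippocampus this axis has been studied for its part in neurogenesis, synaptic function and memory. The dw mutation lowers the pituitary's GH output, and the comparison sets dw/dw rats against heterozygous controls by their hippocampal transcripts. A shortage of GH in adolescence, an earlier shortage and other effects of the genotype cannot be told apart in it.

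Each value below is a log2 normalized signal, in which 1 unit is a factor of 2, and each difference is dw/dw saline minus HZ, with its standard error (SE) from a limma fit over all 24 arrays. Genes near 6.1 on this scale lie close to background, where differences are compressed. The tissue was bulk hippocampus, so fewer cells of a type and less RNA per cell cannot be told apart. The signals were those of a forebrain sample with excitatory and inhibitory neurons and myelin: Slc17a7, the vesicular glutamate transporter, averaged 8.52 ± 0.10 in dw/dw saline and 8.32 ± 0.16 in HZ rats, and Gad1, the enzyme that makes GABA, 11.60 ± 0.051 and 11.55 ± 0.035 (SD, n = 4 each). Prox1, which marks granule cells of the dentate gyrus, was near background in both groups, at 6.16 ± 0.010 and 6.16 ± 0.024. Of the 6 listed pituitary markers with a named probe, Prl, Tshb, Cga, Lhb and Pou1f1 were detected on 0 of the 24 arrays. The sixth, Pomc, was detected on at least 4 arrays and differed by 0.024.

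The 8 arrays were alike, with correlations between 0.9939 and 0.9984 across the tested probes. Between 45.9% and 49.2% of all probes were detected on the dw/dw saline arrays and between 46.7% and 50% on the HZ arrays. The first principal component of the 8 arrays held 45.8% of their variance. The score on it was -4.14 for dw/dw saline replicate 1, 5.07, 9.24 and 3.31 for the other dw/dw saline arrays, and -7.93, 2.27, -7.48 and -0.337 for HZ replicates 1 to 4. The dw/dw saline replicate 1 array thus lay among the HZ arrays. The score went with the share of probes detected (Pearson r = -0.90, exact permutation p = 0.0035, adjusted 0.011; Spearman rho = -0.89, exact permutation p = 0.0057, adjusted 0.011; n = 8). It also went with the mean scanner signal (r = -0.80, exact permutation p = 0.02, adjusted 0.02; rho = -0.86, exact permutation p = 0.011, adjusted 0.014; n = 8). These 2 relations were those computed, and without the 2 arrays farthest from the median of each measure r was -0.81 and -0.70. Ptgds and Ccn2 were among the genes that led the component on its positive side, and Add3, Nptn and Stxbp3 on its negative side. The 5 also stand among the differences described further on. With the share of probes detected as a covariate, added after seeing the data, the difference of Add3 was -0.45 in place of -0.69 and that of Nptn -0.35 in place of -0.51. The differences of Stxbp3, Ptgds and Ccn2 were then -0.38, 0.41 and 0.50, in place of -0.40, 0.49 and 0.41. With the mean scanner signal the 5 kept their signs too. On the slides of both ages the saline dwarfs took positions 1 to 4 and the controls 9 to 12, so group and block of positions cannot be told apart. A fit with slide position as a covariate takes its slope from within the blocks and extends it across them. Differences from that fit, given below without SEs, are therefore uncertain and do not show an effect of position.

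**Figure D1:**
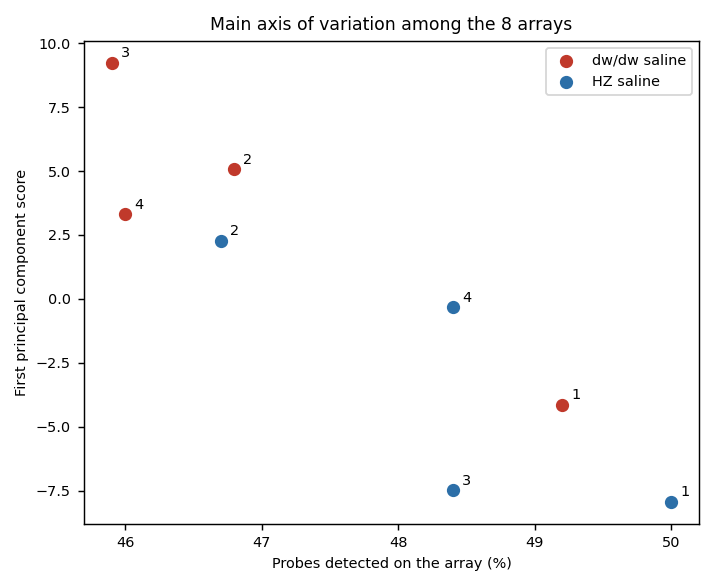
The share of probes detected on each array (horizontal axis, percent) against its score on the first principal component (vertical axis, arbitrary units) for the 4 dw/dw saline arrays (red) and the 4 HZ saline arrays (blue) at 30 days, with the replicate number beside each point. The array of dw/dw saline replicate 1, at 49.2% detected and a score of -4.14, lies with the HZ arrays, and HZ replicate 2, at 46.7% and 2.27, lies with the other dw/dw arrays.

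No probe passed the threshold. Of 11487 tested probes, 0 had an adjusted p under 0.05 in the limma fit, and the smallest adjusted p was 0.194. At an unadjusted p under 0.05 there were 820 probes (7.14%), against 574 by chance alone, with 405 higher (3.53%) and 415 lower (3.61%) in dw/dw saline rats. The counts rested on single arrays: without dw/dw saline replicate 1 they were 659 higher and 681 lower, with 5 probes past the adjusted threshold, and without dw/dw saline replicate 3 they were 247 and 241. Without HZ replicate 3 they were 269 and 277. Among the 7983 named genes, 310 were higher (3.88%) and 257 lower (3.22%) at that unadjusted p. Whatever the p, 53.6% of them had positive and 46.4% negative differences. The 4 dw/dw saline values lay wholly above the 4 HZ values for 207 genes (2.59%) and wholly below them for 155 (1.94%), together 362 (4.53%). These shares are the background against which the genes and groups below are read, and no gene below is called changed.

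Differences were small. The median size over the named genes was 0.0274, with the 95th percentile at 0.156, and only 4 genes differed by more than 0.5. The median 95% confidence interval reached 0.0925 to each side, so that for a typical gene a difference of that size could not be told from 0. Genes with a mean under 6.5 had a median size of difference of 0.0128, compressed by their nearness to background, and genes between 8 and 10 had 0.0657. Of the 12 largest differences, 6 each way, 4 had an unadjusted p under 0.05, all of them on the lower side.

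**Figure D2:**
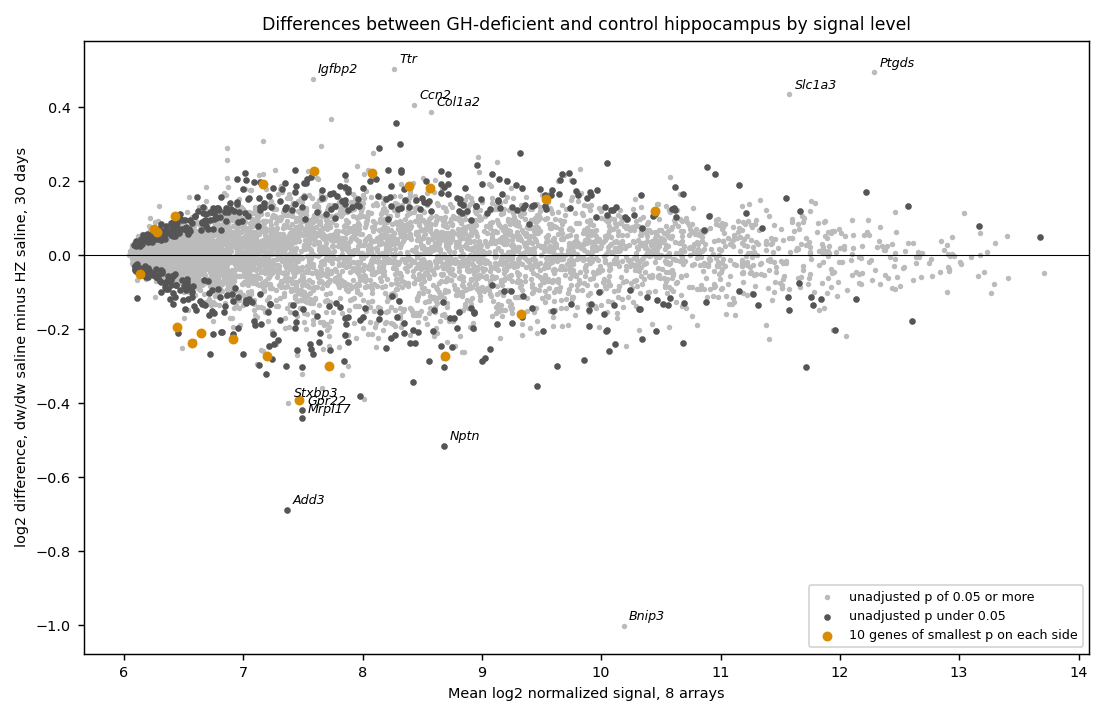
The log2 difference between dw/dw saline and HZ rats at 30 days (vertical axis) against the mean log2 normalized signal of the 8 arrays (horizontal axis), 1 point for each of the 7983 named genes. Dark points have an unadjusted p under 0.05, orange points are the 10 genes of smallest p on each side, and the 6 largest differences each way are named, from Bnip3 at -1.0 to Ttr at 0.50.

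The genes of smallest p on the lower side included enzymes and RNA-handling proteins. For 9 of the 10 the groups did not overlap, as the choice by p favours. The promoters of Mcee, the second gene by p on this side, and of Ppip5k1, the first on the higher side, are printed as examples, 1 from each side, of genes whose groups did not overlap at either age. They are RefSeq's sequence in GRCr8, 250 bases before and 50 bases from the annotated start of transcription, and capitals mark the 50 bases from the start. The Mcee window is chr1:127376103-127376402 on the plus strand, with a GC content of 56.3% and 18 CpG dinucleotides, and that of Ppip5k1 is chr3:128781359-128781658 on the minus strand, with 48.0% and 9.
Mcee: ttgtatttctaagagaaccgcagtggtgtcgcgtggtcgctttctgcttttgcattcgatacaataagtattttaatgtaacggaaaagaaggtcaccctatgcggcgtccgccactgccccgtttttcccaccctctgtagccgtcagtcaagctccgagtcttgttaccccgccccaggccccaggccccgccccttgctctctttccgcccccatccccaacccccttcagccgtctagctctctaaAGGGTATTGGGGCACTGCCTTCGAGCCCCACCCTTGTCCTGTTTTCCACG
Ppip5k1: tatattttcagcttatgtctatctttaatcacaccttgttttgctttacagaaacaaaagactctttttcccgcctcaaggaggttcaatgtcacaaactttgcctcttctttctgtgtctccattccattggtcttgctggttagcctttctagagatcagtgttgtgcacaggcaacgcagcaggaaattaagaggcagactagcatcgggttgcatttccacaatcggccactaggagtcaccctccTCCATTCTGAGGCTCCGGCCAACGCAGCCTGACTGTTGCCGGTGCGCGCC
The motif TTCNNNGAA, the palindrome that STAT5 is known to bind and which reads the same on both strands, was in neither window. RefSeq windows were matched for 16 of the 20 genes of smallest p, and 0 of the 16 held it, against 6.57% of the windows of tested named genes (438 of 6669) and 8.68% of all windows in the table (2382 of 27457). It was in 6.11% of the windows of genes higher at an unadjusted p under 0.05 and in 7.48% of those lower. A match or its absence in these letters is a description of the windows only.

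Mcee, the epimerase that prepares methylmalonyl-CoA from propionate breakdown for the citrate cycle, had values of 8.72, 8.48, 8.48 and 8.55 in dw/dw saline rats and averaged 8.71 ± 0.079 (SD, n = 4) in GH-treated dw/dw rats, against 8.82, 8.75, 8.92 and 8.83 in HZ rats. Every value of the saline dwarfs lay below every HZ value, and replicate 1 was the saline dwarf closest to the controls. Dwarfs and controls differed by -0.27 (95% interval -0.39 to -0.15; limma adjusted p = 0.269). Zcchc9, a CCHC-type zinc finger protein, had 6.59, 6.47, 6.62 and 6.47 in dw/dw saline rats and averaged 6.55 ± 0.024 in GH-treated dw/dw rats, against 6.71, 6.77, 6.78 and 6.74 in HZ rats. All 4 saline dwarfs lay below the lowest control, and the difference was -0.21 (95% interval -0.29 to -0.13; adjusted p = 0.194). Kcnb2, a delayed-rectifier potassium channel subunit, was close to background, with 6.12, 6.11, 6.11 and 6.10 in dw/dw saline and 6.15, 6.19, 6.16 and 6.16 in HZ rats, so that the size of its difference is a compressed value. Each of the 8 arrays was left out in turn. Without dw/dw saline replicate 1, Mcee and Zcchc9 passed the threshold, at -0.32 and -0.23 (limma adjusted p = 0.0444 for both). That array lay among the HZ arrays on the first principal component, and for both genes above the mean of the saline dwarfs. Leaving it out therefore widens these differences by construction and is no support for them.

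Further genes on the lower side had similar separation. Uchl3, a hydrolase that trims ubiquitin, had 6.55, 6.45, 6.36 and 6.44 in dw/dw saline rats, against 6.69, 6.62, 6.82 and 6.60 in HZ rats. Adhfe1, a mitochondrial enzyme that oxidises hydroxybutyrate, had 7.08, 6.93, 7.06 and 7.18 in dw/dw saline rats, against 7.38, 7.27, 7.47 and 7.21 in HZ rats. For both genes all 4 dwarf values lay under the lowest control value, for Adhfe1 by a margin far smaller than the spread within a group. Magoh, a core protein of the exon junction complex that marks spliced messages, had 6.89, 6.74, 6.72 and 6.87 in dw/dw saline rats and averaged 6.99 ± 0.090 in GH-treated dw/dw rats, against 7.10, 6.99, 7.08 and 6.96 in HZ rats. Rtca, an RNA phosphate cyclase, had 9.28, 9.29, 9.23 and 9.21 in dw/dw saline rats, against 9.41, 9.40, 9.38 and 9.46 in HZ rats, with a gap between the groups wider than the range within either. Their differences were -0.24 for Uchl3, -0.27 for Adhfe1, -0.23 for Magoh and -0.16 for Rtca, each with a limma adjusted p of 0.45.

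Cnih4, Arl6ip5 and Rnf139 encode proteins of the endoplasmic reticulum membrane. Cnih4, a cargo export protein of the cornichon family, had 7.55, 7.31, 7.06 and 7.18 in dw/dw saline rats, against 7.72, 7.56, 7.78 and 7.59 in HZ rats, and replicate 1 of the dwarfs all but reached the lowest control. Arl6ip5, a membrane protein known to restrain the neuronal glutamate transporter, had 7.68, 7.59, 7.50 and 7.50 in dw/dw saline rats, against 7.94, 7.80, 7.82 and 7.91 in HZ rats. Rnf139, a ubiquitin ligase, had 6.46, 6.32, 6.29 and 6.35 in dw/dw saline rats, against 6.59, 6.43, 6.66 and 6.51 in HZ rats, and here dwarf replicate 1 lay above the lowest control, so the groups overlapped. The differences were -0.39, -0.30 and -0.19, with SEs of 0.10, 0.078 and 0.050. Dwarf replicate 1 was the array nearest the HZ mean for 7 of the 10 genes on the lower side and for 5 of the 10 on the higher side.

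Among the 10 genes of smallest p on the higher side the groups did not overlap for 8. Ppip5k1, which makes inositol pyrophosphates, had 8.51, 8.43, 8.51 and 8.49 in dw/dw saline rats and averaged 8.35 ± 0.081 in GH-treated dw/dw rats, against 8.37, 8.28, 8.33 and 8.22 in HZ rats. Dwarfs and controls differed by 0.19 (95% interval 0.10 to 0.28; limma adjusted p = 0.289). The 4 dwarf values were close together and the lowest of them stood clear of the highest control. Vapb, which tethers the endoplasmic reticulum to other membranes, had 8.62, 8.68, 8.66 and 8.68 in dw/dw saline rats, against 8.48, 8.56, 8.48 and 8.40 in HZ rats. Dstyk, a dual-specificity protein kinase, had 9.56, 9.67, 9.61 and 9.62 in dw/dw saline rats, against 9.42, 9.59, 9.39 and 9.46 in HZ rats, with HZ replicate 2 inside the dwarf range. Synpr, a synaptic vesicle membrane protein abundant in mossy fibre terminals, had 7.76, 7.70, 7.63 and 7.75 in dw/dw saline rats, against 7.51, 7.36, 7.56 and 7.50 in HZ rats, with no overlap and a difference of 0.23 (SE 0.060, adjusted p = 0.45).

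The remaining higher genes were dimmer or differed less. Ctc1, of the complex that finishes telomere replication, had 7.28, 7.20, 7.32 and 7.25 in dw/dw saline rats, against 7.03, 7.20, 7.03 and 7.02 in HZ rats. The groups barely cleared each other because HZ replicate 2 was high. A second tested probe for Ctc1, of lower mean signal, gave a difference of 0.0022 (SE 0.014) and did not repeat that of the first. Why the probes differed was not tested. Pagr1, of a histone methyltransferase complex, had 8.14, 8.18, 8.20 and 8.24 in dw/dw saline rats, against 7.94, 8.17, 7.87 and 7.89 in HZ rats, again with HZ replicate 2 inside the dwarf range. Ap1ar, a regulator of vesicle transport from the Golgi, was the brightest of them and averaged 10.51 ± 0.032 in dw/dw saline rats, against 10.39 ± 0.026 in HZ rats (SD, n = 4), with a difference of 0.12. The tRNA synthetase gene Cars1, the mitochondrial ribosomal gene Mrps15 and the lipoxygenase gene Aloxe3 differed by 0.11, 0.072 and 0.064. These 3 genes had dim signals, where the scale is compressed.

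**Figure D3:**
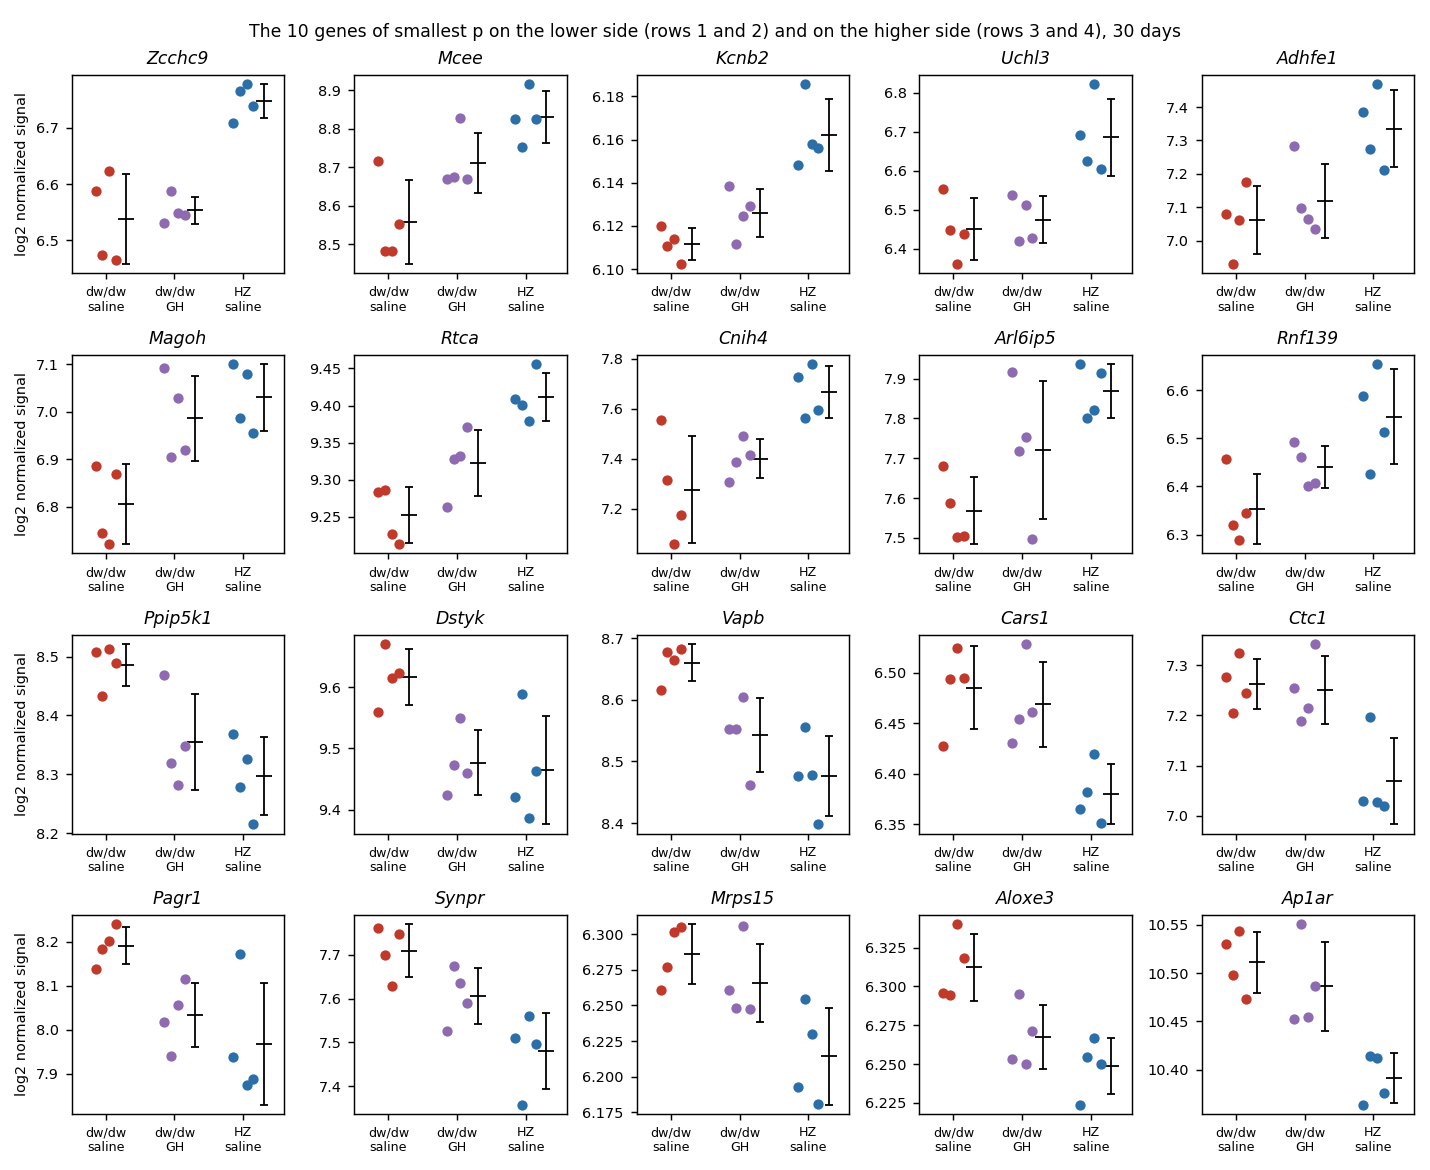
Log2 normalized signal (vertical axes, each with its own range) of the 10 genes of smallest p lower and the 10 higher in dw/dw saline than in HZ rats at 30 days, 1 point for each array of the dw/dw saline (red), dw/dw GH (purple) and HZ saline (blue) groups, with mean and SD as a bar. The dw/dw saline and HZ points do not overlap for 9 of the lower and 8 of the higher genes, and none passed adjustment over all probes.

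The largest differences by size were mostly not those of smallest p. Bnip3, a mitochondrial protein of hypoxia and mitophagy, differed by -1.0 (SE 1.01). Its values were 10.25, 7.56, 10.46 and 10.48 in dw/dw saline rats, against 10.21, 11.09, 10.33 and 11.13 in HZ rats, so that the difference rested mainly on dwarf replicate 2. Add3, an adducin of the membrane skeleton, had 7.18, 7.03, 6.95 and 6.95 in dw/dw saline rats, against 8.09, 7.05, 8.01 and 7.70 in HZ rats, a difference of -0.69 (SE 0.24, limma adjusted p = 0.623) in which HZ replicate 2 sat with the dwarfs. Nptn, a synaptic adhesion protein, had 8.97, 8.45, 8.0 and 8.28 in dw/dw saline rats, against 9.0, 8.63, 9.17 and 8.96 in HZ rats, and dwarf replicate 1 lay within the controls. Mrpl17, of the large mitochondrial ribosomal subunit, was the 1 of these 12 genes whose groups did not overlap, with 7.55, 7.23, 7.13 and 7.17 in dw/dw saline rats, against 7.81, 7.60, 7.75 and 7.68 in HZ rats (difference -0.44, SE 0.12, adjusted p = 0.537). Gpr22, an orphan receptor, and Stxbp3, a syntaxin-binding protein, differed by -0.42 and -0.40 with overlapping groups.

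The 6 largest differences on the higher side all had overlapping groups. Ttr, the thyroxine carrier made by choroid plexus, had 8.80, 8.81, 7.94 and 8.52 in dw/dw saline rats, against 8.25, 8.13, 7.28 and 8.40 in HZ rats (difference 0.50, SE 0.66). Ptgds, a prostaglandin D synthase of the meninges, had 12.20, 13.02, 12.83 and 12.08 in dw/dw saline rats, against 12.29, 12.09, 11.75 and 12.02 in HZ rats (difference 0.49, SE 0.30). For Ptgds 2 of the dwarfs were well above every control and the others lay within the control range. Slc1a3, an astrocyte glutamate transporter, had 11.67, 11.90, 11.91 and 11.70 in dw/dw saline rats, against 11.72, 10.92, 11.83 and 10.97 in HZ rats, so that the controls stood at separate high and low levels. The matrix genes Ccn2 and Col1a2 differed by 0.41 (SE 0.21) and 0.39 (SE 0.39). The sixth, Igfbp2, belongs to the IGF axis.

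Among 30 listed genes of the GH and IGF axis, 20 were measured, of which 12 had positive and 8 negative differences, with a median of 0.0052, against 0.0031 over all named genes. Only Igfbp7 had an unadjusted p under 0.05 (5%, lower, beside 3.22% of all named genes). Igfbp7, a secreted protein that binds IGFs weakly and is made by vessels, had 10.001, 9.89, 9.94 and 9.97 in dw/dw saline rats and averaged 10.05 ± 0.17 in GH-treated dw/dw rats, against 10.17, 10.07, 10.06 and 10.13 in HZ rats. All 4 dwarf values lay below the controls, and the difference was -0.16 (SE 0.066, limma adjusted p = 0.656).

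Igfbp2, the main IGF-binding protein of cerebrospinal fluid, had 7.56, 8.49, 7.92 and 7.30 in dw/dw saline rats, against 7.76, 7.24, 7.14 and 7.24 in HZ rats. Igf2, the growth factor that meninges and choroid plexus secrete, had 9.66, 10.67, 10.04 and 9.39 in dw/dw saline rats, against 9.90, 9.59, 9.51 and 9.82 in HZ rats. For both genes dwarf replicate 2 was the highest array and the groups overlapped, with differences of 0.48 (SE 0.39) and 0.23 (SE 0.37). Without dw/dw saline replicate 2 the Igf2 difference was -0.011. Igf1r, the IGF-1 receptor, had 7.01, 7.0, 7.18 and 7.14 in dw/dw saline rats, against 7.01, 7.0, 6.94 and 6.92 in HZ rats, where replicates 3 and 4 of the dwarfs were above all controls and replicates 1 and 2 were not.

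Igf2r, which clears IGF-2 from the cell surface, differed by 0.028 (SE 0.051), and by -0.021 with median scaling of the arrays. Downstream, the GH receptor kinase gene Jak2 differed by 0.11 (SE 0.057) and the lipid kinase gene Pik3ca by -0.13 (SE 0.090), and Igfbp6 by 0.084 (SE 0.065), all with overlapping groups. Akt1, the kinase downstream of phosphoinositide 3-kinase, had 7.45, 7.67, 7.61 and 7.60 in dw/dw saline rats, against 7.48, 7.69, 7.53 and 7.62 in HZ rats, with overlapping groups. The remaining 11 of the 20 were dim, with both group means under 6.5, and their differences ran only between -0.037 (Igfbp3) and 0.023 (Socs2). Among these were the GH-responsive feedback genes Socs2 and Cish and the signal carriers Stat5a and Stat5b. Ghr was detected on 1 array of 24, an HZ array, and Insr, Irs2, Igfbp4, Igfals, Socs1 and Socs3 on 0 arrays, and none of these was tested. Igf1 itself was not analysed here, no probe carrying its name.

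Among lists of mitochondrial energy metabolism, those of complexes II and III and of fatty acid oxidation had mostly negative differences. Of 10 measured subunits of respiratory complexes II and III, 8 were negative (80%, beside 46.4% of all named genes). Their median was -0.043, and 1 had an unadjusted p under 0.05 (10%, lower, beside 3.22% of all named genes). The list score, the mean over members of the value minus the gene's mean over 24 arrays, lay between -0.042 and -0.0029 in dw/dw saline rats and between 0.013 and 0.066 in HZ rats, without overlap. No other of the 43 list scores separated the groups. How often chance alone would separate a score was not tested. Over the 28 subunits of complex I the median was -0.00060 with 15 negative, and over the 12 of complex V -0.012 with 7 negative. For complex IV it was -0.032 with 5 of 8 negative. Ndufa12, an accessory subunit of complex I, had 11.26, 11.23, 11.26 and 11.13 in dw/dw saline rats, against 11.27, 11.30, 11.36 and 11.37 in HZ rats, with all dwarf values below the controls and a difference of -0.10 (SE 0.037, limma adjusted p = 0.63).

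Fatty acid oxidation genes were negative for 14 of 18 (77.8%, beside 46.4% of all named genes), with a median of -0.049. That median kept its sign under every setting tried, between -0.074 and -0.027. Etfa, the electron transfer flavoprotein subunit that takes electrons from acyl-CoA dehydrogenases, had 6.80, 6.80, 6.72 and 6.73 in dw/dw saline rats, against 6.95, 6.86, 7.01 and 6.85 in HZ rats, without overlap. Cpt2, the inner-membrane carnitine acyltransferase, ran the other way, with a difference of 0.10 (SE 0.046). Breakdown of branched-chain amino acids and propionate had 3 of 17 members lower at an unadjusted p under 0.05, or 17.6% against 3.22% of all named genes, and 0 higher, although 9 of the 17 were positive. These were Mcee, the hydratase Echs1 (8.89, 8.81, 8.85 and 8.89 in dw/dw saline, against 8.96, 9.09, 9.08 and 8.93 in HZ rats) and the carboxylase subunit Pccb, which lay near background with a difference of -0.042. The list was chosen with the Mcee difference already known.

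Glycolysis and citrate cycle genes split 14 to 14, with 3 lower at an unadjusted p under 0.05 (10.7%) and 0 higher. Over all named genes these shares were 3.22% and 3.88%. Ldhb, the lactate dehydrogenase subunit favoured in oxidative tissue, had 11.22, 11.23, 11.26 and 11.28 in dw/dw saline rats, against 11.32, 11.37, 11.42 and 11.41 in HZ rats. Pdhb, a subunit of pyruvate dehydrogenase at the entry to the citrate cycle, had 10.44, 10.30, 10.30 and 10.39 in dw/dw saline rats, against 10.66, 10.46, 10.64 and 10.51 in HZ rats. Neither gene's groups overlapped, and the differences were -0.13 (SE 0.051) and -0.21 (SE 0.090). Sucla2, of succinyl-CoA synthetase, differed by -0.14 (SE 0.068), with dwarf replicate 1 inside the control range. Adjusted limma p-values were 0.63, 0.672 and 0.685.

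Antioxidant enzymes had 3 lower (9.38%) and 1 higher (3.12%) of 32 at an unadjusted p under 0.05, beside 3.22% and 3.88% of all named genes. Of the 32, 19 were negative, with a median of -0.011. Prdx5, the mitochondrial peroxiredoxin, had 10.66, 10.56, 10.43 and 10.64 in dw/dw saline rats, against 10.84, 10.76, 10.89 and 10.74 in HZ rats, without overlap (difference -0.24, SE 0.066, adjusted p = 0.555). Prdx1 and Sod1, abundant peroxide and superoxide scavengers of the cytosol, differed by -0.10 (SE 0.044) and -0.11 (SE 0.051), with overlap.

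Genes of the mitochondrial ribosome were negative for 34 of 57 (59.6%, beside 46.4% of all named genes), with a median of -0.025. At an unadjusted p under 0.05, 4 were lower (7.02%) and 2 higher (3.51%), beside 3.22% and 3.88% of all named genes. Besides Mrpl17, Mrpl35 differed by -0.24 (SE 0.077) and Mrpl1 by -0.21 (SE 0.067), both with dwarf replicate 1 inside the controls' range. Genes of the cytosolic ribosome went the other way in number, 39 of 57 positive (68.4%, beside 53.6% of all named genes) with a median of 0.023. That median was -0.0051 with median scaling and -0.0093 with the share of probes detected as a covariate. Yet the 3 members lower at an unadjusted p under 0.05 had larger differences than the 1 higher. Rps13 had 7.35, 6.87, 6.90 and 6.82 in dw/dw saline rats, against 7.20, 7.23, 7.43 and 7.26 in HZ rats, a pattern in which dwarf replicate 1 stood with the controls and the other dwarfs below all of them. Its difference was -0.30 (SE 0.086, limma adjusted p = 0.596), and without that array -0.42 (adjusted p = 0.0169). Leaving out the dwarf array that stood with the controls widens the difference by construction and is no support for it. Rpl7 and Rps12 differed by -0.22 and -0.17 and Rpl27 by 0.12, and with slide position as a covariate those of Rpl7 and Rps12 were 0.082 and 0.050. Ribosomal protein genes have many near-identical pseudogenes, so a probe may read more than its named gene.

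Translation factors were positive for 21 of 33 (63.6%, beside 53.6% of all named genes) with a median of 0.048. At an unadjusted p under 0.05, 3 were higher (9.09%) and 2 lower (6.06%), beside 3.88% and 3.22% of all named genes. The median was 0.013 without HZ replicate 1, 0.010 with median scaling, 0.023 and 0.025 with scanner signal and share detected as covariates, and 0.11 with slide position. Eif2b2, of the exchange factor that recharges initiation factor eIF2, had 9.06, 9.06, 9.17 and 9.09 in dw/dw saline rats, against 8.81, 8.89, 8.90 and 9.01 in HZ rats, without overlap. Eif2s1, the alpha subunit of eIF2 itself, had the opposite sign, with 6.76, 6.51, 6.47 and 6.62 in dw/dw saline rats, against 6.91, 6.75, 6.95 and 6.81 in HZ rats and a difference of -0.27 (SE 0.071, limma adjusted p = 0.485). Here too dwarf replicate 1 fell just inside the control range. Eif3m, of the scaffold factor eIF3, differed by -0.30 (SE 0.14).

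Aminoacyl-tRNA synthetases, which charge tRNAs with amino acids, were positive for 16 of 23 (69.6%, beside 53.6% of all named genes). At an unadjusted p under 0.05, 4 were higher (17.4%) and 1 lower (4.35%), beside 3.88% and 3.22% of all named genes. The 4 include Cars1, already chosen above by its p. The list median was 0.024. That median was 0.0054 without HZ replicate 1, 0.0047 with median scaling and 0.10 with slide position as a covariate. Kars1 differed by 0.15 (SE 0.062). The mitochondrial enzyme gene Nars2 had 6.84, 6.87, 6.82 and 6.90 in dw/dw saline rats, against 6.76, 6.80, 6.63 and 6.76 in HZ rats, without overlap. Rars1 was the member with a lower value and averaged 6.36 ± 0.031 in dw/dw saline rats, against 6.43 ± 0.020 in HZ rats (SD, n = 4). Proteasome subunits split evenly, 16 positive and 17 negative. At an unadjusted p under 0.05, 2 were higher (6.06%) and 3 lower (9.09%), beside 3.88% and 3.22% of all named genes. Among them, the core subunit gene Psma5 differed by -0.094 (SE 0.039) and the lid subunit gene Psmd7 by 0.074 (SE 0.031). Xbp1, which switches on genes of the unfolded protein response, was the 1 of 25 chaperone and stress genes with an unadjusted p under 0.05 (4%, higher, beside 3.88% of all named genes). It had 10.01, 10.06, 9.91 and 9.99 in dw/dw saline rats and averaged 9.82 ± 0.023 in GH-treated dw/dw rats, against 9.91, 9.88, 9.84 and 9.70 in HZ rats. The saline dwarfs lay above the controls, replicate 3 only just, and with slide position as a covariate the difference was -0.016.

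Hormone-responsive gene groups had few differences. Ncoa1, a coactivator of nuclear receptors, had 8.70, 8.76, 8.82 and 8.79 in dw/dw saline rats, against 8.43, 8.67, 8.45 and 8.62 in HZ rats, without overlap (difference 0.23, SE 0.077, limma adjusted p = 0.623). It was the 1 of 13 measured thyroid hormone genes with an unadjusted p under 0.05 (7.69%, higher, beside 3.88% of all named genes). Among 12 glucocorticoid genes 0 reached that level. Klf9, a target of glucocorticoid and thyroid hormone, differed by -0.11 (SE 0.081). Hsd11b1, which regenerates active glucocorticoid, had all 4 dwarf values above the controls, but by a mean of only 0.039, and -0.0055 with median scaling. Among 18 cholesterol synthesis genes 0 had an unadjusted p under 0.05, with Idi1 at -0.16 (SE 0.078) and the regulator Srebf1 at 0.17 (SE 0.094). Interferon and MHC genes also gave 0 of 10, and Mx1 differed by -0.14 (SE 0.12).

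Grin1, the obligatory subunit of NMDA receptors, had 10.68, 10.67, 10.71 and 10.65 in dw/dw saline rats, against 10.52, 10.59, 10.47 and 10.61 in HZ rats, all dwarfs above all controls (difference 0.13, SE 0.040, limma adjusted p = 0.596). Grin2c, another NMDA receptor subunit, had 7.13, 7.19, 7.29 and 7.34 in dw/dw saline rats, against 7.01, 7.06, 6.91 and 7.11 in HZ rats, also without overlap, and the AMPA receptor gene Gria3 differed by -0.20 (SE 0.11) with overlap. Ionotropic glutamate receptors were positive for 10 of 13 (76.9%, beside 53.6% of all named genes) with a median of 0.020. Of the 13, 1 had an unadjusted p under 0.05 (7.69%, higher, beside 3.88% of all named genes). Their list score lay between -0.018 and 0.018 in dw/dw saline rats and between -0.053 and -0.017 in HZ rats, so that the ranges overlapped at their edges. Their median ran from 0.0097 (without dw/dw saline replicate 2) to 0.045 (without HZ replicate 1) with single arrays left out, and was 0.0076 with median scaling. Gabra5, the receptor subunit of tonic inhibition in hippocampal pyramidal cells, had 9.59, 9.22, 9.06 and 9.29 in dw/dw saline rats, against 9.73, 9.47, 9.83 and 9.53 in HZ rats, with dwarf replicate 1 inside the controls (difference -0.35, SE 0.13). Gabbr1, of the metabotropic GABA receptor, had the opposite sign, with 8.55, 8.71, 8.91 and 8.86 in dw/dw saline rats, against 8.56, 8.57, 8.54 and 8.59 in HZ rats.

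Among 41 potassium channel genes 2 were higher (4.88%) and 3 lower (7.32%) at an unadjusted p under 0.05, beside 3.88% and 3.22% of all named genes. Their median was 0.0098. Kcnd3, of the A-type current, differed by -0.29 (SE 0.12) and its partner Kcnip4 by -0.18 (SE 0.077), both with HZ replicate 2 low among the controls. Cacnb3, a calcium channel beta subunit, had 9.73, 9.65, 9.66 and 9.62 in dw/dw saline rats, against 9.55, 9.59, 9.39 and 9.48 in HZ rats, without overlap. The SNARE gene Stx4 differed by -0.22 (SE 0.10), and the complexin gene Cplx1, a clamp of vesicle fusion, by 0.069 (SE 0.026), of 42 synaptic vesicle genes that split 21 to 21.

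Camk2a, the kinase of synaptic plasticity, had 7.20, 7.26, 7.46 and 7.28 in dw/dw saline rats, against 7.16, 7.06, 7.15 and 7.19 in HZ rats, with all dwarfs above all controls. Its difference was 0.16 (SE 0.072, adjusted p = 0.676), and -0.040 with slide position as a covariate. Ppp3r1, the calcineurin regulatory subunit, differed by 0.17 (SE 0.081). Of 18 immediate early genes, which neuronal activity induces, only Jun had an unadjusted p under 0.05 (5.56%, higher, beside 3.88% of all named genes), at 0.10 (SE 0.044). Neurod1, a transcription factor of granule neuron differentiation, had 8.35, 8.31, 8.15 and 8.21 in dw/dw saline rats and averaged 8.42 ± 0.12 in GH-treated dw/dw rats, against 8.41, 8.37, 8.47 and 8.51 in HZ rats, all saline dwarfs below all controls (difference -0.18, SE 0.063, limma adjusted p = 0.63). It was the 1 of 19 measured neurogenesis and cell cycle genes with an unadjusted p under 0.05 (5.26%, lower, beside 3.22% of all named genes). At 7 days the difference of Neurod1 was 0.14. Hif1a, the hypoxia-response factor, differed by 0.15 (SE 0.067).

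Of the 13 lists of cell type and tissue markers 3 held any member at an unadjusted p under 0.05 (neurons, oligodendrocyte precursors and neighbouring brain regions). Bok, a marker of hippocampal pyramidal cells, differed by -0.20 (SE 0.084), while Camk2a and Slc17a7 on the same list differed by 0.16 and 0.20. The 11 measured neuron markers split 5 positive to 6 negative, with a median of -0.023. Among oligodendrocyte precursor markers, Vcan had 7.10, 7.18, 7.17 and 7.18 in dw/dw saline rats, against 7.38, 7.28, 7.26 and 7.23 in HZ rats, without overlap (difference -0.13, SE 0.039, limma adjusted p = 0.596), while Cspg4 had the opposite sign at 0.22 (SE 0.10). The interneuron peptide gene Npy differed by 0.15 (SE 0.094) and the myelin gene Mbp by 0.16 (SE 0.13). The microglial gene Aif1 had 9.55, 9.49, 9.56 and 9.57 in dw/dw saline rats, against 9.57, 9.66, 9.79 and 9.64 in HZ rats, without overlap, and with position as a covariate its difference was 0.12. The 12 measured microglia markers split 6 positive to 6 negative, with a median of 0.0040. Ndrg2 of astrocytes differed by 0.12 (SE 0.059).

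Markers of the linings and of blood had wide spreads between rats. Meninges and fibroblast markers were positive for 13 of 15 (86.7%, beside 53.6% of all named genes), with a median of 0.027. Their list score lay between -0.26 and 0.072 in dw/dw saline rats and between -0.24 and -0.12 in HZ rats. Choroid plexus markers were positive for 5 of 6, with a median of 0.032, and of its defining genes Kl and Aqp1 were detected on 2 of 24 arrays and Folr1, Clic6, Slc4a5, Cldn2 and Tmem72 on 0. Their score lay between -0.12 and 0.15 in dw/dw saline rats and between -0.32 and -0.051 in HZ rats. Ttr, Igf2 and Col1a2 are themselves on these lists, and the part of lining tissue in the positive differences above was not tested. Dcn, a proteoglycan of the meninges, differed by 0.18 (SE 0.18), and Hba-a1, a haemoglobin chain of red cells, by -0.16 (SE 0.19), with dwarf replicate 3 the highest of all 8 arrays.

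**Figure D4:**
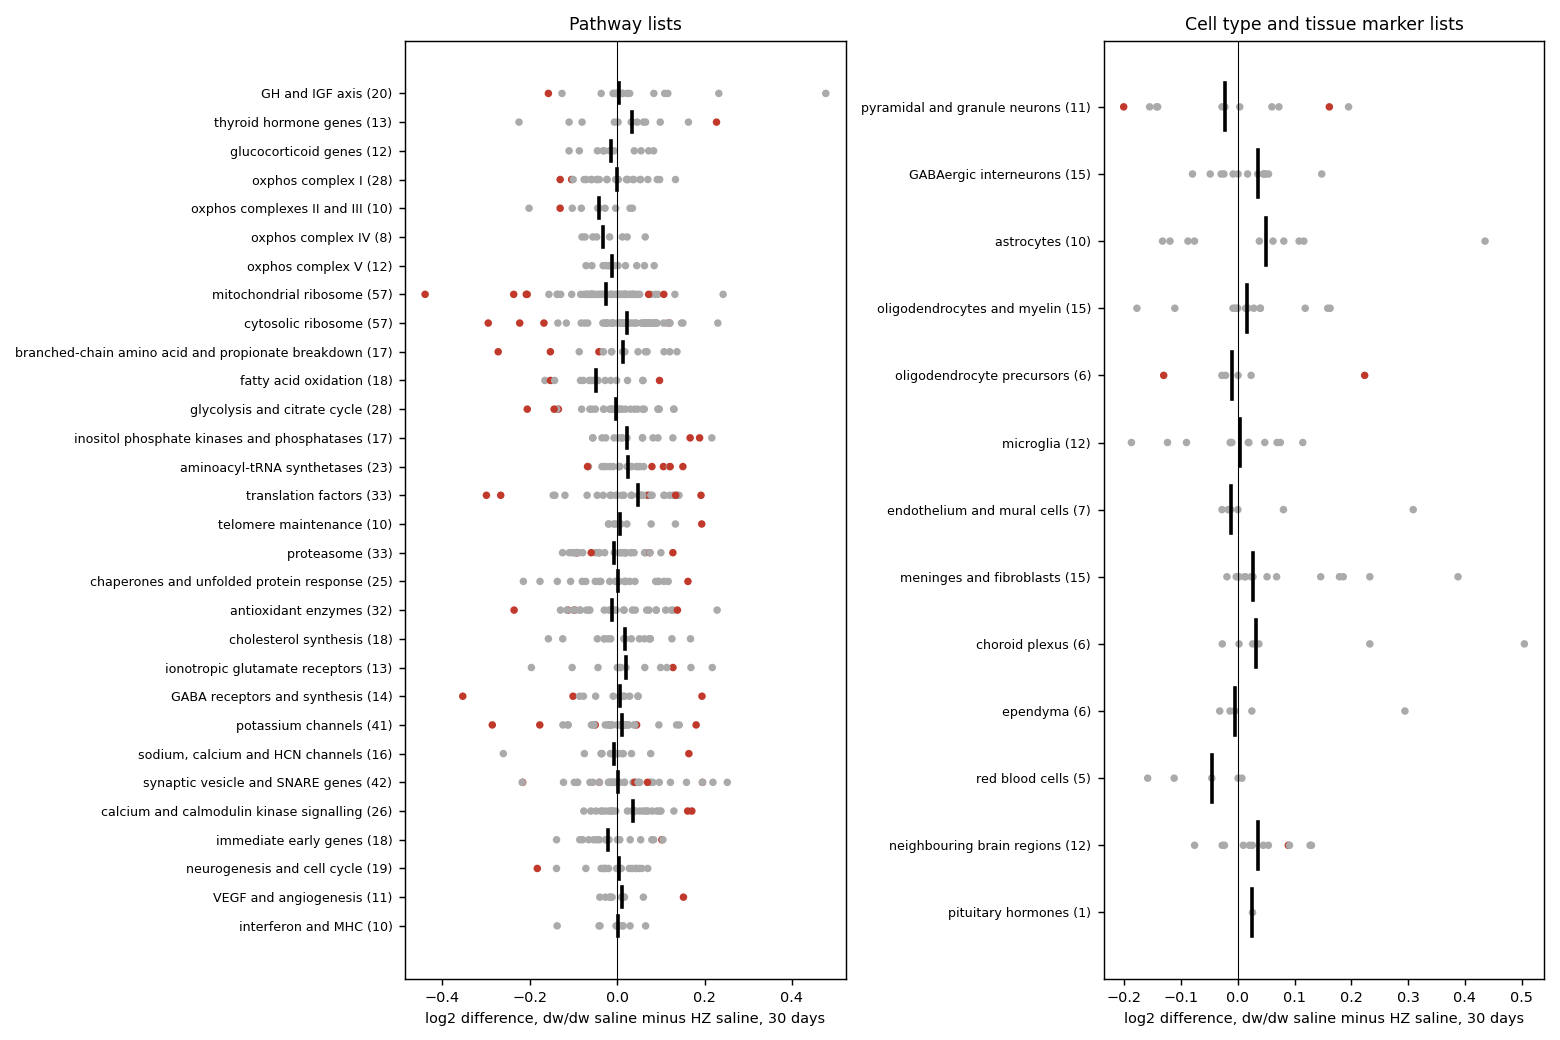
Log2 differences between dw/dw saline and HZ rats at 30 days (horizontal axes) for the measured members of 30 pathway lists (left panel) and 13 marker lists (right panel), 1 point for each gene, with the number measured in brackets and the list median as a black bar. Red points have an unadjusted p under 0.05. Medians lie between -0.049 and 0.050.

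The same comparison was made at 7 days, in other rats on another slide with the same layout of groups over positions, so a sign shared by both ages cannot be told apart from one shared by position. The 7-day arrays also entered the estimate of the spread behind the choice of genes at 30 days. Of the 10 genes of smallest p on the lower side 8 were negative at 7 days, and of the 10 on the higher side 6 were positive, together 14 of 20, beside 55.4% of all named genes with the same sign at both ages. With position as a covariate these were 15 of 20 and 82.2%. That fit has a single position slope for both slides, so it shifts a gene's differences at both ages by the same amount. The higher share therefore cannot be read as closer agreement between the ages. Across genes the correlation of the differences was 0.239 (genes are not independent replicates). Mcee differed by -0.15 at 7 days (limma adjusted p = 0.679), Ppip5k1 by 0.13 (adjusted p = 0.57) and Mrps15 by 0.044 (adjusted p = 0.716), and these were the 3 of the 20 with an unadjusted p under 0.05 there, against 5.87% of all named genes. Zcchc9 differed by -0.076 (adjusted p = 0.774). Kcnb2, Rtca, Vapb, Cars1, Aloxe3 and Ap1ar had the opposite sign at 7 days, with Rtca at 0.011 and Vapb at -0.041. The change of the difference with age had 0 of 11487 probes past the adjusted threshold and 459 (4%) at an unadjusted p under 0.05, or 337 of the named genes (4.22%). Of the 20 genes, Kcnb2 and Vapb had the smallest p for this change, with limma adjusted p of 0.995 and 0.995.

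Groups did not overlap, in the same direction, at both ages for 11 of the 7983 named genes. At 30 days alone 2.59% of named genes were wholly higher and 1.94% wholly lower. How many genes chance alone would give at both ages was not tested, and the ages shared the layout of positions. Those of the 11 genes that are not among the genes above were named after their values were seen. Besides Mcee, Zcchc9, Ppip5k1, Etfa and Rars1 they were Mpc1, a subunit of the mitochondrial pyruvate carrier, Stc1, the hormone stanniocalcin, Kctd9, Frmd3, Nppc, the precursor of C-type natriuretic peptide, and the interferon receptor gene Ifnar1. Mpc1 averaged 8.42 in dw/dw saline and 8.70 in HZ rats at 30 days, with differences of -0.29 (SE 0.11) at 30 days and -0.27 (SE 0.11) at 7 days. Etfa differed by -0.15 and -0.20 at these ages. Stc1 differed by -0.10 and -0.080, Kctd9 by -0.066 and -0.067, and Nppc by 0.11 and 0.083. The adjusted limma p of the 11 genes lay between 0.194 and 0.736 at 30 days and between 0.465 and 0.784 at 7 days.

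Several of the largest differences turned sign with age. Ttr differed by 0.50 at 30 days and -0.97 at 7 days, Igfbp2 by 0.48 and -0.74, Igf2 by 0.23 and -0.85, and Col1a2 by 0.39 and -0.74. Meninges and fibroblast markers, with a median of 0.027 at 30 days, had -0.12 at 7 days with 0 of 15 positive, and choroid plexus markers had 0.032 and -0.13. The interaction for Igfbp2 was 1.22 (limma adjusted p = 0.995) and for Neurod1 -0.32 (adjusted p = 0.995). Add3 had the reverse pattern, at -0.69 and 0.34, while Nptn and Mrpl17 were lower at both ages, by -0.42 and -0.29 at 7 days. Age and slide cannot be told apart in these contrasts.

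**Figure D5:**
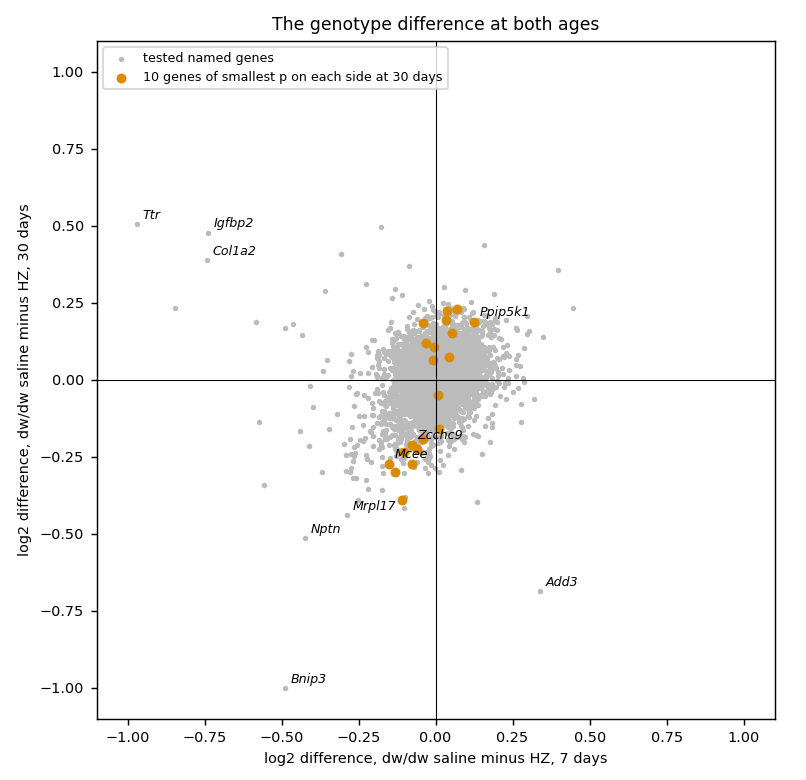
The log2 difference between dw/dw saline and HZ rats at 7 days (horizontal axis) and at 30 days (vertical axis), 1 point for each of 7983 named genes, with the 20 genes of smallest p at 30 days in orange. The points form a cloud with a correlation of 0.239, Mrpl17, Nptn and Bnip3 lie low at both ages, and Ttr, Igfbp2 and Col1a2 lie high at 30 days and low at 7 days.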

How the data were processed

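Whole hippocampal RNA was hybridised to Illumina rat bead arrays after Trizol extraction, column clean-up and biotin labelling, per the labels' protocols. Per the file headers, each of the 22226 probes on the 24 arrays has a mean bead intensity, linear and not normalized, beside a detection p-value. The submitters' processing notes name GenomeStudio 2010.2 without saying what it did. The authors also deposited a matrix of processed intensity values, whose normalization is not given in the sources used here, and served as an alternative, as log2 of the values with those under 1 set to 1.

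Groups were taken from the sample titles. Signals were background-corrected by normexp with the detection p-values (offset 16), quantile normalized across the 24 arrays and log2 transformed, in limma 3.58.1 (R 4.3.3, jsonlite 2.0.0). A probe was tested when detected at p under 0.05 on at least 4 arrays, which kept 11487 (51.7%). Symbols came from the platform annotation: 13192 probes had 1 symbol, 0 had several and 9034 were unnamed here, and 13151 were matched to the RefSeq gene table. Of the tested probes 3437 were unnamed, and 7983 genes were represented, 67 of them by several probes, for which the probe of highest mean stood. Depth cannot be counted on arrays, and their number limits the precision. A linear model of 6 group means was fitted to all 24 arrays (18 residual degrees of freedom, prior 1.55) and moderated with eBayes, with two-sided tests adjusted by Benjamini-Hochberg at 0.05. The script was tested on simulated data.

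The genes and the 43 lists were chosen with earlier results of these data known. Genes named were the 10 of smallest p on each side, the 6 of largest difference each way, all measured GH and IGF axis genes, up to 4 members of smallest p from each other list, and tissue markers fixed by name. Lists are described by counts and medians, with no test. Alternatives covered normalization, offset, filtering, moderation, slide position, array weights, the authors' matrix, each of the 8 arrays left out and, added after seeing the data, the mean scanner signal and the share of probes detected as covariates.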

Additional observations from a re-analysis of the deposited data

Results flagged for a closer look

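Single arrays stood apart from the other 3 of their group for 10 of the 208 sets of 4 values examined, where chance alone gives about 1 in 20. In each case the array's gap to its nearest neighbour, as a share of the group's range, exceeded Dixon's 95% critical value. Of the 10 values, 5 belonged to dw/dw saline replicate 1. There, Rps13 was at 7.345 against 6.823 to 6.901 in the other dwarfs, Gabra2 at 6.455 against 6.322 to 6.341, Igfbp3 at 6.378 against 6.302 to 6.314, Ndrg2 at 12.48 against 12.53, and Vcan at 7.1 against 7.167 to 7.18. The remaining dw/dw value was Bnip3 in replicate 2, at 7.563 against 10.25 to 10.48, which sets the largest difference of the comparison. Among HZ arrays, Igfbp2 in replicate 1 was at 7.758 against 7.138 to 7.238, Socs2 in replicate 1 at 6.175 against 6.1 to 6.109, Ctc1 in replicate 2 at 7.198 against 7.02 to 7.03, and Igfbp3 in replicate 3 at 6.429 against 6.335 to 6.345.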

How the results depend on the processing

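With 4 rats a group, group tied to position and 1 slide for each age, the comparison limits what can be called. Under 22 alternatives the directions of 91 of the 104 genes with tabulated values never reversed, and 946 list medians included 66 that moved by more than the spread. Alternatives that changed only the filter, the moderation, the replicate block or the arrays fitted beside these 8 cannot change a gene's difference. Most of the genes were also named for a small p or a large difference in these arrays. Both counts therefore overstate how far directions and medians were put to a test. The count of probes past the adjusted threshold was 0 except for 1 with the authors' matrix values (Kcnb2), 1 with array weights (Zcchc9, adjusted p = 0.0223) and, with single arrays left out, 0 to 5. Probes at an unadjusted p under 0.05 numbered 100 higher and 147 lower with median scaling in place of quantile normalization, 726 and 717 without the detection filter (with more probes tested), and 691 and 708 with array weights. With single arrays left out they ran from 247 to 659 higher and from 241 to 681 lower. The share of these probes that were higher was 49.4%, and 40.5% with median scaling. Genes without overlap numbered 98 higher and 50 lower with median scaling, and 292 to 560 and 210 to 494 with single arrays left out, where fewer arrays have to be apart. For the change with age, 287 probes had an unadjusted p under 0.05 with median scaling and 1018 without the filter, and 339 to 585 with single arrays left out. Between 48.9% (median scaling) and 82.2% (slide position as a covariate) of genes had the same sign at both ages. The position fit shifts both differences of a gene by the same amount, so its share is not comparable with the others. Reversed differences with position as a covariate were those of Slc1a3 (-0.70), Igfbp3 (0.0037), Socs2 (-0.045), Rpl7 (0.082), Rps12 (0.050), Psma5 (0.014), Xbp1 (-0.016), Camk2a (-0.040), Mx1 (0.12) and Aif1 (0.12). With median scaling those of Igf2r (-0.021) and Hsd11b1 (-0.0055) reversed, and with single arrays left out that of Igf2 ran from -0.011 (without dw/dw saline replicate 2) to 0.42. The cause of these changes was not tested, and those of the position fit rest on a slope taken from within the blocks of positions. Of the 43 list medians, 17 changed sign with position as a covariate, 9 with the share of probes detected, 7 with median scaling, 4 with mean scanner signal, 2 with the authors' matrix values, and 19 with at least 1 of the 8 arrays left out. Same-numbered rats of both groups had deviations correlated at 0.422, 0.0831, -0.237 and 0.0274, and differently numbered rats from -0.479 to 0.387. These values do not settle whether the numbers pair the rats. With the replicate number as a block 0 probes were called, 482 were higher and 495 lower at an unadjusted p under 0.05, and 538 differed with age.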
